A study of Mus musculus with 4 samples.

Results

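Mast cells and basophils are granulocytes of allergic and antiparasite responses. Both carry the high-affinity IgE receptor, whose signalling releases histamine and proteases stored in their granules. Mast cells mature in tissues, basophils mature in the bone marrow, and both descend from progenitors that arise downstream of haematopoietic stem cells. The members described here are 6 named genes: the basophil proteases Prss34 (mast cell protease 11) and Mcpt8, the histamine-forming enzyme Hdc, the granule exopeptidase Cpa3, and the IgE receptor chains Ms4a2 (beta) and Fcer1g (gamma). They were taken by name, and the rule further required library values in the table, so they were chosen by name and, of measured values, by presence among the 9244 genes with values. Prss34, Hdc, Cpa3 and Fcer1g met it, which is 4 of 6. Mcpt8 and Ms4a2 were not analysed here.

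RNA sequencing compared 2 wild-type (WT) libraries with 2 Sin3B knockout (KO) libraries of long-term haematopoietic stem cells. All came from C57BL/6 mice between 8 and 12 weeks of age, sorted as lineage-negative, Sca-1-positive, Kit-positive (LSK) cells negative for CD34 and Flk2. PolyA RNA was amplified with SMARTer, a template-switching chemistry for little starting material. The allele, the driver of the deletion, the number of animals behind a library and whether the 2 libraries of a genotype are separate animals have no statement in the labels. A p-value here therefore reflects only how far these 4 libraries scatter, and that scatter can be technical. Libraries are called WT 1, WT 2, Sin3B KO 1 and Sin3B KO 2 after their titles, and the descriptions number them 1 and 3. What the number marks is not stated.

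Each library held between 9950979 and 13700630 reads in the listed genes, and values are normalised read counts (reads divided by a size factor per library). The targeted gene Sin3b, scaffold of a histone deacetylase complex, had 1522 in WT 1, 1825 in WT 2, 755.4 in Sin3B KO 1 and 646.5 in Sin3B KO 2. Its log2 fold change was -1.25 with an adjusted p of 0.548 (limma), and -1.03 with an adjusted p of 0.00249 in the authors' deposited table. The libraries also stood apart by number. In a fit of genotype and number, 195 of 9244 genes (2.11%) passed between the libraries numbered 1 and 2 (limma, Benjamini-Hochberg adjusted p under 0.05), 145 of them higher (1.57%) and 50 lower (0.541%) in the libraries numbered 1. The neutrophil genes Mpo and Lyz2 were among those that passed. The 12 neutrophil markers, all with values, summed to 78926 in WT 1 and 14859 in WT 2, and to 54005 in Sin3B KO 1 and 24683 in Sin3B KO 2. None of the 12 was at 0 in a library. Of the 9 eosinophil markers, 0 had values here. As these are bulk samples, fewer cells of a type and less RNA per cell cannot be told apart.

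All 4 measured members had their lowest value in WT 2. The 250 bases before their transcription starts are shown as a description, from RefSeq with build GRCm38.p6. Each member had an entry. Any link of these bases to the WT 2 values was not tested. The sequences run 5′ to 3′ on the strand of the gene, and capitals mark GATAA on either strand, the core letters of sites bound by GATA factors, which direct mast cell and basophil genes.
Prss34, chr17:25298144-25298393, plus strand: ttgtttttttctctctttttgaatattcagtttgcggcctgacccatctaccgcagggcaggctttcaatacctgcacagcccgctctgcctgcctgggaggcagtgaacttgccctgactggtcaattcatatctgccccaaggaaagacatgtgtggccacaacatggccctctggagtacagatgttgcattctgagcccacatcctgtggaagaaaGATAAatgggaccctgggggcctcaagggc
Hdc, chr2:126618679-126618928, minus strand: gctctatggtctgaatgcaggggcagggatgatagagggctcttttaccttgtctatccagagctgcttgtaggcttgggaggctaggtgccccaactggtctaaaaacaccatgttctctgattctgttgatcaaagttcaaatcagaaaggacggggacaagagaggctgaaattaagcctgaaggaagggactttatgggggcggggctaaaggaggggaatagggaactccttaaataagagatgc
Cpa3, chr3:20242182-20242431, minus strand: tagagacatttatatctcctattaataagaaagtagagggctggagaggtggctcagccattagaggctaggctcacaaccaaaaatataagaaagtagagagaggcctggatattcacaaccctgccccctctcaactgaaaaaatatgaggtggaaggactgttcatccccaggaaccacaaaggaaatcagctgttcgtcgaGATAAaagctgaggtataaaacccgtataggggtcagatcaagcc
Fcer1g, chr1:171234350-171234599, minus strand: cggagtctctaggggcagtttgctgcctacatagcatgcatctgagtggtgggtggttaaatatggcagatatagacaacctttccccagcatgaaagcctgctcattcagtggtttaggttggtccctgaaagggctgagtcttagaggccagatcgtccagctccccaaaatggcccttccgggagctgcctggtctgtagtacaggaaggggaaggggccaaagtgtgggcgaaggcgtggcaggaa

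The upstream windows of Prss34 and Cpa3 held 1 GATAA match each, beginning 30 bases before the start in Prss34 and 45 bases before it in Cpa3. Those of Hdc and Fcer1g held 0. Of 32851 RefSeq windows of the same length, 22.6% held a match. The E-box CANNTG, the letters bound by basic helix-loop-helix factors such as Mitf, was present 2 times in Prss34 and in Cpa3 and 1 time in Hdc and in Fcer1g, against 66.2% of windows with at least 1 match. The TATA box letters TATAAA were found in Cpa3 alone of the 4, on either strand, 31 and 242 bases before the start, and in 12.4% of all windows. These matches describe the letters of the windows only.

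Prss34, a trypsin-like serine protease that in mice is a marker of basophils, had the widest range of the members. WT 1 had 1979 normalised reads, WT 2 had 9.89, Sin3B KO 1 had 327.7 and Sin3B KO 2 had 272.0. With the step of each library taken as 1 read, an assumption behind all read counts and counting intervals here, these are 1736, 10, 341 and 305 reads. WT 1 was thus high, WT 2 was near the bottom of the table, and the KO libraries lay close to each other between them, so the genotypes overlapped completely. By normalised read count Prss34 ranked 1325 of 9244 genes in WT 1 and 9237 in WT 2. The WT 1 value was 200.1 times that of WT 2, and on the log2(value + 1) scale the WT difference of 7.51 ranked 3 among all genes. Between the KO libraries the same difference was 0.27. The 95% exact Poisson interval of the 10 reads in WT 2 runs from 4.74 to 18.2 normalised reads and, like all such intervals here, covers counting error only. It does not reach the intervals of the KO libraries, which together span 242.3 to 364.4 normalised reads.

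Hdc, histidine decarboxylase, is the enzyme that makes histamine. WT 1 had 234.9 normalised reads, WT 2 had 8.90, Sin3B KO 1 had 236.4 and Sin3B KO 2 had 14.3. These correspond to 206, 9, 246 and 16 reads. The values split by library number and not by genotype: the libraries numbered 1 lay within each other's counting interval (203.9 to 269.2 normalised reads in WT and 207.8 to 267.9 in the KO), and the libraries numbered 2 were both low, with overlapping intervals of 4.07 to 16.9 and 8.16 to 23.2. The ratio of library 1 to library 2 was 26.4 in WT and 16.6 in the KO. On the log2(value + 1) scale the differences were 4.57 and 3.96, which ranked 15 and 5 among all genes. Of all genes, 131 (1.42%) were more than 2-fold higher in library 1 on that scale in each genotype, Hdc among them and the other 3 members not. Hdc was also 1 of 8 genes (0.0865%) that were more than 10-fold higher in each.

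Cpa3, carboxypeptidase A3, is a zinc exopeptidase of mast cell and basophil granules. WT 1 had 309.0 normalised reads, WT 2 had 64.3, Sin3B KO 1 had 278.7 and Sin3B KO 2 had 140.0. The reads behind these values were 271, 65, 290 and 157. Its order over the libraries was that of Prss34 with a smaller range, and the WT libraries enclosed the KO libraries. Library 1 was 4.81 times library 2 in WT and 1.99 times in the KO. The log2 differences of 2.25 and 0.99 ranked 89 and 253 among all genes.

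Fcer1g encodes the common gamma chain of Fc receptors, a signalling adaptor that also serves IgG receptors and C-type lectins of other myeloid cells. It is the least restricted of the members and also the most evenly expressed. WT 1 had 1087 normalised reads, WT 2 had 467.8, Sin3B KO 1 had 1002 and Sin3B KO 2 had 968.5, from 953, 473, 1043 and 1086 reads. WT 2 alone was low, and the other 3 libraries lay within 911.7 to 1158 with their counting intervals. The WT difference of 1.21 on the log2 scale ranked 283, and the KO difference was 0.05.

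**Figure D1:**
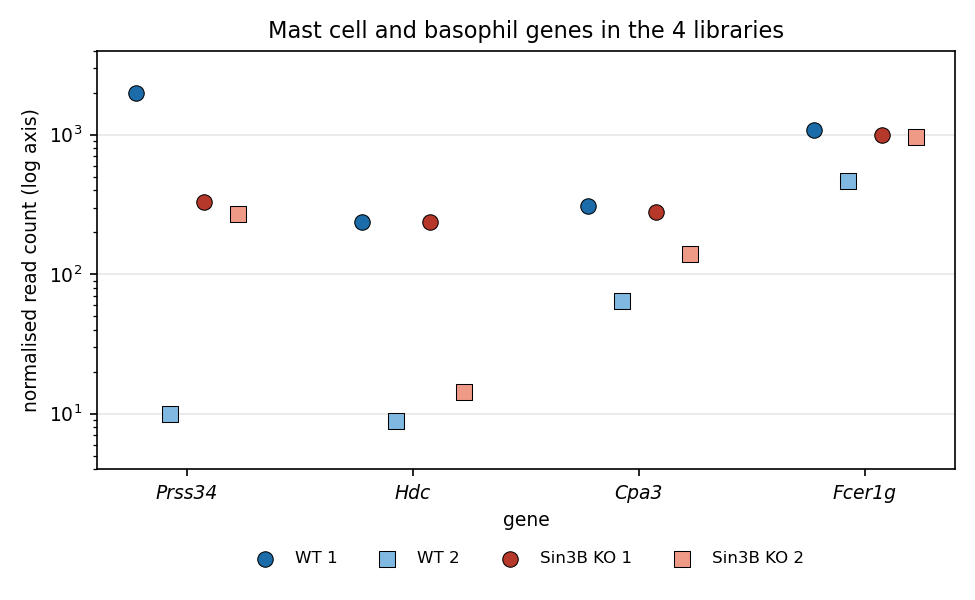
Normalised read count (log axis) of Prss34, Hdc, Cpa3 and Fcer1g, with 1 point per library (circles, libraries numbered 1; squares, libraries numbered 2; blue, WT; red, Sin3B KO). WT 2 is the lowest library for all 4 genes; Sin3B KO 2 is low for Hdc (14.3) but not for Prss34 (272.0).

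All 4 members had both libraries numbered 1 above both numbered 2, while 17.1% of all genes did. The members with this order were proposed with earlier results of these data in view, so the count is a description. The size of the difference was not shared. In WT it ran from 1.21 for Fcer1g to 7.51 for Prss34, with a median of 3.41 against -0.05 over all genes. In the KO it ran from 0.05 for Fcer1g to 3.96 for Hdc, with a median of 0.63 against -0.00. Prss34 had the largest WT difference of the 4 and the second smallest KO difference. The summed level of the members was 3609.7 in WT 1, 550.9 in WT 2, 1845 in Sin3B KO 1 and 1395 in Sin3B KO 2.

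Markers of some other blood cells also differed by number. Of the 12 neutrophil markers, 11 had both libraries numbered 1 above both numbered 2, with median log2 differences of 3.19 in WT and 1.07 in the KO. The granule enzyme Mpo had 17017 and 2359 in WT (library 1, then library 2) and 19732 and 5569 in the KO libraries. The lysozyme of macrophages and neutrophils, Lyz2, had 12893 and 4674, then 8755 and 5694, in the same order. Ngp, a neutrophil granule protein, had the order of Prss34: WT 1 had 15381, WT 2 had 1304, Sin3B KO 1 had 3687 and Sin3B KO 2 had 3624. Both libraries numbered 1 were above both numbered 2 for 4 of the 5 erythroid markers with values (of 11 listed) and 5 of the 5 B cell markers with values (of 8), with medians of 4.16 (WT) and 2.53 (KO) for erythroid and 2.60 (WT) and 1.78 (KO) for B cell markers. Of 6 megakaryocyte markers (of 7) 2 had that order and 2 the reverse, with medians of 0.04 and -0.08. Single markers differed widely, from -1.0 (WT) and -1.1 (KO) for Vwf to 5.42 and 1.51 for Ppbp. The genes listed as sort gate markers (7 of 7) had medians of 0.33 (WT) and 0.07 (KO). That list mixes markers selected for (Kit, Ly6a) and against (Cd34, Flt3). It also holds Slamf1, Procr and Cd48, which are not part of the gate given in the labels. Of the 7 listed genes, 4 had both libraries numbered 1 above both numbered 2, and 2 had the reverse. Differences in this list ran from -0.53 (WT) and -0.45 (KO) for Procr to 2.53 and 2.48 for Cd48, both outside the gate. Flt3, which encodes Flk2, was at 1.65 and 1.23. The 5 erythroid markers matched by name summed to between 823.9 and 4209, and the B cell markers to between 1489.5 and 3968. Of these markers, Slc4a1 was the only one at 0 in a library, WT 2. The erythroid sum leaves out Beta.s, an erythroid gene in the table under a name not in the list. Beta.s had 3211 in WT 1, 53.4 in WT 2, 2283 in Sin3B KO 1 and 195.3 in Sin3B KO 2. The part of these other cells in the values of Prss34, Hdc, Cpa3 and Fcer1g was not tested.

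**Figure D2:**
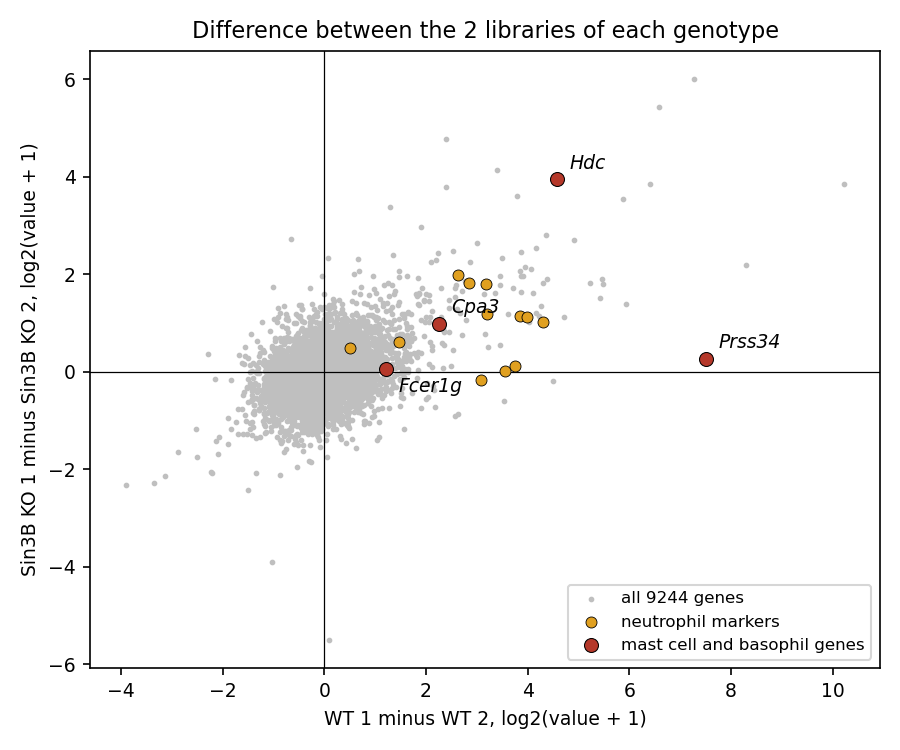
Difference between the 2 libraries of WT (horizontal) and of Sin3B KO (vertical), on the log2(value + 1) scale, for 9244 genes (grey), 12 neutrophil markers (yellow) and the 4 members (red). Hdc is high on both axes (4.57 and 3.96), and Prss34 on the WT axis only (7.51 and 0.27).

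The members did not keep a constant ratio to each other. Of the reads of Prss34 and Hdc together, Prss34 made up 89.4% in WT 1 (95% exact binomial interval 87.9 to 90.7%, 1942 reads). In Sin3B KO 1 it made up 58.1% (54.0 to 62.1%, 587 reads) and in Sin3B KO 2 95.0% (92.0 to 97.1%, 321 reads). In WT 2 only 19 reads were available, and the share of 52.6% has an interval of 28.9 to 75.6%. The intervals of WT 1, Sin3B KO 1 and Sin3B KO 2 did not overlap. The balance of reads between basophil protease and histamine-forming enzyme thus differed between these libraries beyond the counting error of reads, also within the KO. All counting intervals here treat reads as independent. The RNA was amplified, so the intervals can be too narrow for the molecules sampled. Hdc and Cpa3 split by number instead. Hdc made up 43.2% (38.7 to 47.8%) of their joint reads in WT 1 and 45.9% (41.6 to 50.2%) in Sin3B KO 1, with overlapping intervals. In the libraries numbered 2 it made up 12.2% (5.71 to 21.8%) in WT and 9.25% (5.38 to 14.6%) in the KO, again overlapping each other and below both libraries numbered 1. Prss34 against Cpa3 differed in each library, at 86.5% in WT 1, 13.3% in WT 2, 54.0% in Sin3B KO 1 and 66.0% in Sin3B KO 2.

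Levels of different genes were compared per kilobase of exon, using the joined exons of each gene in GENCODE M21. Fcer1g (874 bases) had the highest mean over the 4 libraries, 1008 normalised reads per kilobase, above 93.8% of genes. Prss34 (1220 bases) followed with 530.5, Cpa3 (1517 bases) with 130.5 and Hdc (6389 bases) with 19.3, at percentile 2.08. In WT 1 the order was led by Prss34, at 1622 per kilobase against 1243 for Fcer1g. In WT 2 Prss34 came after both, at 8.11 per kilobase, with Fcer1g at 535.3 and Cpa3 at 42.4. In the KO libraries Fcer1g led with 1147 and 1108, followed by Prss34 with 268.6 and 222.9. Hdc was last of the 4 in every library, between 1.39 and 37.0 per kilobase. The range of Prss34 over the libraries enclosed those of Fcer1g and of Cpa3, so Prss34 could not be placed beyond its spread. The ranges of Fcer1g and Cpa3 did not overlap, and Fcer1g was above Cpa3 in every library. The table starts at a mean of 120.2, and Hdc, at a mean of 123.6, was the member nearest to that limit, with 44 genes below it; Cpa3 came next at 198.0.

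Between genotypes, none of the members differed beyond the spread of the libraries. The mean of Prss34 was 994.6 ± 1393 for WT and 299.9 ± 39.4 for the KO (SD, n = 2), so the mean count was lower in the KO. On the log2(value + 1) scale the same libraries gave a fold change of 1.03 in the other direction (SE 1.85, 95% interval -3.17 to 5.23), the low WT 2 value weighing more on a log scale. Its adjusted p was 0.849 (limma, Benjamini-Hochberg over 9244 genes). Compared within the numbers, Prss34 was 6.04 times as high in WT 1 as in Sin3B KO 1 and 27.5 times as high in Sin3B KO 2 as in WT 2. Without WT replicate 2 its log2 fold change was -2.72, and without WT replicate 1 it was 4.78. The direction of Prss34 between genotypes thus turned with 1 library and with the scale.

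Hdc had means of 121.9 ± 159.8 for WT and 125.4 ± 157.1 for the KO (SD, n = 2), with a log2 fold change of 0.32 (SE 1.71, 95% interval -3.59 to 4.22). Cpa3 was at 186.6 ± 173.0 and 209.4 ± 98.1, with a log2 fold change of 0.48 (SE 0.72, 95% interval -1.16 to 2.12). Fcer1g, the most precisely measured member, was at 777.2 ± 437.5 and 985.5 ± 24.0, with a log2 fold change of 0.47 (SE 0.36, 95% interval -0.36 to 1.29). Adjusted p-values were 0.957 for Hdc, 0.811 for Cpa3 and 0.653 for Fcer1g (limma, Benjamini-Hochberg). The interval of Hdc was the widest of these 3 and that of Fcer1g the narrowest, and each included 0. Without WT replicate 2 the log2 fold changes were -1.97 for Hdc, -0.64 for Cpa3 and -0.14 for Fcer1g, and without WT replicate 1 they were 2.60, 1.60 and 1.07. Without Sin3B KO replicate 1 Hdc was at -1.66 and Cpa3 at -0.01. With the other KO library left out they were at 2.30 and 0.98.

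**Figure D3:**
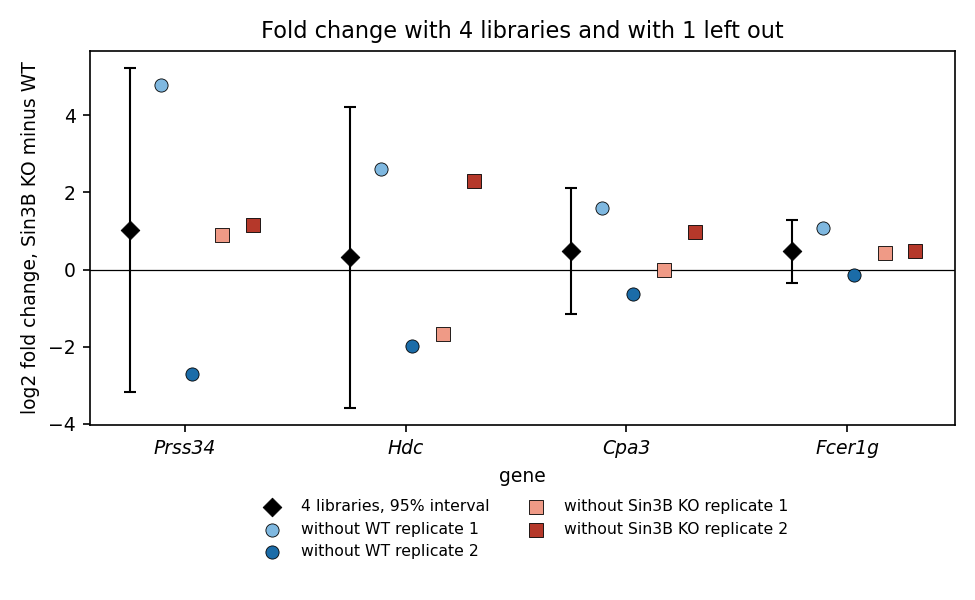
Log2 fold change of each member, Sin3B KO minus WT, with 4 libraries (black diamond, bar: 95% interval from limma) and with each library left out in turn. Every interval includes 0, and all 4 members turn from above to below 0 without WT replicate 2.

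In all, 0 of the 4 members passed, as did 0 of 9244 genes (0%; limma, smallest adjusted p 0.548, with 824 genes or 8.91% at an unadjusted p under 0.05, 0 of them members). Groups that did not overlap were found for 0 of 4 members and for 44.1% of all genes. The median log2 fold change of the 4 members was 0.47 against 0.03 over all genes. It was -1.31 without WT replicate 2, 2.10 without WT replicate 1 and, leaving out Sin3B KO replicate 1 or 2, 0.21 or 1.07. The authors' deposited table gives log2 fold changes of -0.08 (SE 0.12) for Prss34, 0.00 (SE 0.13) for Hdc, 0.06 (SE 0.26) for Cpa3 and 0.23 (SE 0.25) for Fcer1g. The adjusted p in the authors' deposited table was 0.854, 0.997, 0.959 and 0.805, in that order. The sign for Prss34 there was that of the difference in mean count. Its size was far nearer 0 than the means of 994.6 (WT) and 299.9 (KO) would give. How the deposited fold changes and their SEs were estimated is not stated. They are therefore not the same measure as the limma values, and a small SE there is not a precise measurement of no change.

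The genes that surround the members in their pathways were read from lists of such genes. None of their genes passed between genotypes (limma, Benjamini-Hochberg over all genes), and 1, the transcription factor Gata1, passed with the replicate number as a block (adjusted p 0.0319). Counts at an unadjusted p under 0.05 are to be read against 8.91% of all genes. Of 15 granule proteases, 3 had values, Prss34, Cpa3 and Ctsg (cathepsin G, also a neutrophil marker), which had 602.0 in WT 1, 64.3 in WT 2, 472.9 in Sin3B KO 1 and 207.8 in Sin3B KO 2. Ctsg had the same library order as Prss34 and Cpa3. The listed proteases of mature tissue mast cells, such as Cma1, Tpsb2 and Mcpt4, were not analysed here.

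Granule matrix and sorting genes, which load and release such proteases, had 18 of 20 members with values and a median log2 fold change of -0.01. Of these, 2 were at an unadjusted p under 0.05, where 8.91% of all genes were. Srgn, the proteoglycan core that binds granule proteases, had a log2 fold change of 0.06, beside -0.00 for Vamp8, 0.22 for Stxbp2 and 0.07 for Unc13d of granule fusion. Histamine and lipid mediator genes had 9 of 14 with values and a median of 0.17, with 1 at an unadjusted p under 0.05. Slc18a2, the transporter that loads histamine into granules, had 5623 in WT 1, 4127 in WT 2, 3869 in Sin3B KO 1 and 4646 in Sin3B KO 2, and so was abundant in WT 2 and Sin3B KO 2, where Hdc was nearly unread. Log2 fold changes were -0.18 for Slc18a2, 0.25 for Alox5ap and 0.43 for Lta4h of leukotriene synthesis, and 0.17 for the cyclooxygenase Ptgs1.

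Fcer1g acts with receptor chains and with kinases and adaptors downstream of them. The IgE receptor and its signalling had 19 of 25 genes with values, a median of -0.09 and 0 at an unadjusted p under 0.05. The signalling genes Vav1 (-0.05), Pik3cd (-0.09), Inpp5d (0.02) and Ptpn6 (0.14) were close to 0, and the difference between libraries 1 and 2 over this list had a median of -0.06 in WT and 0.04 in the KO. The IgE-binding chain Fcer1a, like Ms4a2, was not analysed here. Of 15 other receptors around the gamma chain 3 had values: the IgG receptor Fcgr3 and the lectins Clec4e and Clec7a. Fcgr3 had 287.3 in WT 1, 15.8 in WT 2, 349.8 in Sin3B KO 1 and 113.3 in Sin3B KO 2. The log2 fold changes of Fcgr3, Clec4e and Clec7a were 1.52, 0.72 and 0.73, with 0 at an unadjusted p under 0.05. All 3 had WT 2 as the lowest library, as Fcer1g did.

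Cytokine receptors of mast cells and basophils (9 of 15 with values, 0 at an unadjusted p under 0.05) had a median of 0.49. Kit, the stem cell factor receptor that both stem cells and mast cells carry, was at 0.03, Csf2rb, the shared chain of the IL-3 receptor, at 0.51, Il1rap at 0.49 and Il4ra at 0.09. Transcription factors (17 of 24, 4 at an unadjusted p under 0.05 against 8.91% of all genes) had a median of -0.20, with Gata2, which both lineages and stem cells need, at -0.20, Lmo2 at -0.65, Nfe2 at 0.03 and Myb at -0.45. Gata2 had 4408 in WT 1, 5818 in WT 2, 4359 in Sin3B KO 1 and 4447 in Sin3B KO 2, highest in WT 2, where Prss34 and Hdc were lowest. Gata1, a factor of erythroid, megakaryocyte, mast cell and basophil lineages, was named after its values were seen. It had 1004 in WT 1, 1063 in WT 2, 3144 in Sin3B KO 1 and 1842 in Sin3B KO 2. The genotypes did not overlap for Gata1, as for 44.1% of all genes. Its log2 fold change was 1.22 (SE 0.27, adjusted p 0.548, limma). Other markers (16 of 30, 3 at an unadjusted p under 0.05 against 8.91% of all genes) had a median of 0.16, with Ifitm1 at 0.11, Rgs18 at 0.37, the integrin Itga2b at 0.27 and Cd24a at -0.12. Srgn, Unc13d, Inpp5d, Kit, Il4ra and Nfe2, whose values were above 0, were below 0 under at least 1 other scaling. Many genes of the last 3 lists are expressed by stem cells and progenitors too.

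The genes most like the members were found by the distance between their log2(value + 1) profile over the 4 libraries, centred on its mean, and the mean profile of the members. The mean profile was 1.66 in WT 1, -2.23 in WT 2, 0.94 in Sin3B KO 1 and -0.37 in Sin3B KO 2. The nearest genes were Csf1r, the receptor of the macrophage growth factor, at a distance of 0.31, the prostacyclin receptor Ptgir at 0.36, the phagocyte oxidase subunit Cybb at 0.44, Tifab at 0.44 and the calprotectin subunit S100a9 at 0.45. The members themselves were farther from their own mean profile, Cpa3 at 1.18, Hdc at 1.95, Fcer1g at 2.09 and Prss34 at 2.70, where the median gene was at 3.01. With 4 libraries a profile has few points, and these distances are descriptions.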

How the data were processed

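The deposited values are a normalised signal: per the file headers, normalised read counts per gene and library, beside the authors' log2 fold changes with standard errors (log2), a test statistic (score) and p-values. Bowtie, DESeq and mm9 are named, without versions, in the submitters' processing notes; filters were not given in the sources used here. Depth is counted in the listed genes. All values were whole multiples (within 0.03) of 1 step per library, which was taken as 1 read. The table lists few low values, so this could not be checked from them, and read totals, intervals and shares rest on it. Of 9796 rows, 552 without library values were left out.

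Values were fitted as log2(value + 1) with limma 3.58.1 in R 4.3.3 (trended prior, genes reaching 1 in 2 or more libraries, Benjamini-Hochberg), two-sided. The fit was tested on simulated counts without any difference by library number, so that test does not cover the spread between the numbered libraries here. Fold changes on the log2(value + 1) scale understate those of low genes. Exon lengths came from GENCODE M21 (GRCm38) and promoters from RefSeq (GRCm38.p6). The members and lists were chosen with earlier results of these data known. Named genes are the members, Sin3b, the most abundant measured genes of each list (4, or 3 for other cell types) and the 5 nearest profiles. Most genes so chosen from the erythroid, B cell, megakaryocyte and sort gate lists, and some from the other lists, are given by counts or sums. Gata1, Ppbp, Vwf, Procr, Cd48 and Flt3 were named after their values were seen. Alternatives were the pseudocount, filter, scaling, a replicate block and each library left out.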

Additional observations from a re-analysis of the deposited data

How the results depend on the processing

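Leaving out 1 library at a time gave 0 to 1 genes called between genotypes, and the replicate block (genotype and number in 1 fit) gave 27, 15 of them higher and 12 lower. The numbers pair only 2 sets of libraries and the labels do not say what they mark. Over genes, the differences between libraries 1 and 2 in WT and in the KO correlated at 0.46. With the block, adjusted p was 0.599 for Prss34, 0.871 for Hdc, 0.567 for Cpa3 and 0.361 for Fcer1g (limma). Calls between the numbered libraries went from 195 to 334 when scaled to the listed total. Of 437 alternatives over 37 named genes, 389 were not counted as reversed and kept the side of the threshold, and 45 reversed. Values that rounded to 0 could not count as reversed. Vamp8, at -0.00 with 4 libraries, was at -0.27 without WT replicate 1 and 0.27 without WT replicate 2. In the alternatives, 0 lost a call and 3 gained one. These were Sin3b and Gata1 (1.22, adjusted p 0.0319, limma) with the block and Ngp without WT replicate 2. Leaving out a library, the log2 fold change of Gata1 ran from 0.83 to 1.60. Among the other genes of the lists, 1 gained a call, the megakaryocyte gene Ppbp with the block (-3.02, adjusted p 0.0448, limma). Leaving out 1 library, log2 fold changes ran from -2.72 to 4.78 for Prss34, -1.97 to 2.60 for Hdc, -0.64 to 1.60 for Cpa3 and -0.14 to 1.07 for Fcer1g. They ran from -0.94 to 2.27 for Ctsg, -0.16 to 0.28 for Srgn, -0.16 to 0.31 for Unc13d, -0.41 to 0.04 for Slc18a2, -0.04 to 0.38 for Ptgs1, -0.31 to 0.13 for Pik3cd, -0.02 to 0.06 for Inpp5d and -0.01 to 0.28 for Ptpn6. For receptors and factors they ran from -0.53 to 3.57 for Fcgr3, -0.19 to 1.64 for Clec7a, -0.13 to 0.19 for Kit, -0.16 to 0.34 for Il4ra and -0.16 to 0.22 for Nfe2. For markers they ran from -0.12 to 0.34 for Ifitm1, -0.43 to 0.20 for Cd24a, -0.70 to 2.15 for Mpo, -2.07 to 1.49 for Ngp and -0.87 to 0.59 for Lyz2. Scaled to the listed total, Srgn was at -0.03, Unc13d at -0.01, Inpp5d at -0.06, Kit at -0.05 and Nfe2 at -0.06. Under upper quartile scaling, which moved the median of all genes from 0.03 to -0.08, Srgn was at -0.06, Unc13d at -0.04, Inpp5d at -0.09, Kit at -0.08, Il4ra at -0.02 and Nfe2 at -0.09. Under trimmed mean scaling Inpp5d was at -0.02, Kit at -0.01 and Nfe2 at -0.01. No scaling or pseudocount turned a member. A mean of at least 500 left Prss34 and Fcer1g of the members among 5807 genes. The planned count models, edgeR and DESeq2, were not run. Each fit without a library has 1 sample in an arm, assumed to vary like the others; the cause of the reversals was not tested. At 9 to 16 reads, Hdc in the libraries numbered 2 and Prss34 in WT 2 rest on few reads. In each genotype the library numbered 2 had more reads in the listed genes than the library numbered 1.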

Other observations

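The genes near a member differed from member to member when its own profile was used in place of the mean, a choice made after the values were seen. Nearest to Prss34 was Chi3l3, a chitinase-like protein of myeloid cells, at a distance of 1.41, with 2125 in WT 1, 33.6 in WT 2, 695.9 in Sin3B KO 1 and 264.9 in Sin3B KO 2. Close to Hdc was Igll1, the surrogate light chain of B cell precursors, with 530.2, 37.6, 991.9 and 80.3 in the same order (distance 0.91). Nearest to Cpa3 was Gapt, an adaptor of blood cells, at a distance of 0.14. Nearest to Fcer1g was Krit1, at 0.12, and close to it was the histamine receptor gene Hrh2, with 158.5, 72.2, 168.2 and 150.7 (distance 0.14).

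Between members, the distance was smallest for Cpa3 and Fcer1g, at 0.99, and largest for Prss34 and Fcer1g, at 4.49. Prss34 and Hdc were 3.41 apart. The 8 genes more than 10-fold higher in library 1 in each genotype were Hdc, Alas2, Beta.s, Slc4a1, Cxcl12, Ibsp, Ebf1 and Igll1. Alas2, Beta.s and Slc4a1 are erythroid genes and Ebf1 and Igll1 B cell genes, while Cxcl12 and Ibsp are known from marrow stroma and bone. No neutrophil marker was among these 8.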
